A study of Oryctolagus cuniculus with 6 samples.

Results

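The cytosolic ribosomal proteins were followed here in smooth muscle cells of the rabbit basilar artery, on 6 one-colour oligonucleotide arrays of 43603 probes. A probe belonged to the set if its gene name, or its description in the array files, named a large (L) or small (S) ribosomal protein and its description did not hold the words mitochondrial, kinase or pseudogene. Of 253 probes that matched a name or description, 136 were left out for those words, and 117 remained, 81 of the large subunit and 36 of the small subunit. They stood for 26 large subunit loci and 10 small subunit loci, of 23608 distinct gene names in the array files. Of these 36 loci, 26 carried a RefSeq symbol and 10 a locus number only, and 22 of the 79 genes of the canonical set of ribosomal proteins were among them. RPS6, RPL11, RPL13A, RPSA, RPLP0, RPLP1, RPLP2, RPL22, RPL39L, RPS27, RPS27L and RPL3L were not analysed here.

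The animals were female New Zealand White rabbits. In the ligated group (n = 3) both common carotid arteries were tied to increase basilar flow, and in the sham group (n = 3) the same vessels were exposed but not tied. On day 5 the basilar artery was perfused with elastase and collagenase, and the cells were freed by trituration, so that both groups went through the same digestion before RNA was taken. The preparations were enriched for smooth muscle but were not sorted, and in such bulk RNA fewer cells of a type and less RNA per cell cannot be told apart.

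A ribosome is built of a small subunit, which binds and reads the messenger RNA, and a large subunit, which joins amino acids into protein. Each subunit consists of ribosomal RNA and of many different proteins, nearly all present in a single copy, and the messenger RNAs of these proteins are among the most abundant of most cells. Many of them begin with a terminal oligopyrimidine tract, through which growth signals set how much of the message is translated. Vessel wall cells that grow or divide make more ribosomes, and ribosome output is a usual readout of growth signalling through MYC and mTOR.

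Signals are given as log2 of the scanner's processed signal minus the 75th percentile of the same array, so a value of 0 is that percentile itself. A change is the ligated mean minus the sham mean on that scale, with the standard error (SE) of limma's fit, and a probe was called when its Benjamini-Hochberg adjusted p over all 27410 tested probes was below 0.05. Testing was limited to probes read well above background by 3 or more of the 6 arrays. By that rule 114 of the 117 ribosomal protein probes were tested, 81 of the large and 33 of the small subunit. All 114 were well above background on all 6 arrays, and the other 3, all of an S26-like locus, on none.

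Over the whole array 2290 probes (8.35%) were called, 68.3% of them higher in ligated arteries, a share of 52.2% with median centring, 55.6% with normexp correction without spots of high background and 99.1% when arrays were scaled on their spike-in controls. The sham arrays shared slide 1 and the ligated arrays slide 2, and the effects of slide and of ligation therefore cannot be told apart. The 10 spike-in controls, RNAs added from outside the sample, had a median change of -0.81 on this scale (range -1.07 to 0.22), and for 5 of them the 3 ligated arrays lay below the 3 sham arrays. Of the 10, 7 had a change below 0. Those above 0 were the dimmest, E1A_r60_3 (0.22) and E1A_r60_a104 (0.04), and the brightest, E1A_r60_1 (0.07). The labels do not say whether each sample received the same amount of them. Sham 2 and sham 3 were closer to each other over all tested probes (SD of their differences 0.38) than any other pair of arrays (0.61 to 1.51). Sham 1 was farther from sham 2 and sham 3 (1.28 and 1.28) than from the ligated arrays (0.92 to 1.19). Ligated 3 was closest to ligated 2 (0.94) but closer to sham 2 (0.96) than to ligated 1 (1.02). The arrays thus did not group fully by treatment over all tested probes. Over the ribosomal protein probes alone, the SD was 0.21 to 0.27 between ligated arrays and 0.25 to 0.32 between sham arrays. Across the groups it was 0.31 to 0.45. The scan of sham 3 was made on scan day 2, all others on scan day 1. Marker signals were summed as linear values relative to the 75th percentile, not as log2, so the brightest markers weigh most. Summed signals of the smooth muscle markers (9 of 10 tested) were 1230 to 2149 in sham and 529 to 1338 in ligated arrays. Those of fibroblasts and meninges (5 of 6) were 506 to 625 and 1102 to 1329, and no marker of neurons and glia was tested. A change below 0 was read for 8 of 9 smooth muscle markers, 1 of 5 of fibroblasts and meninges and 1 of 4 of the endothelium. The markers of monocytes and macrophages (3 of 6) summed to 5.24 to 12.2 and 5.12 to 17.3, those of the endothelium (4 of 6) to 49.9 to 101 and 53.9 to 140, those of lymphocytes (3 of 6) to 0.447 to 1.91 and 0.507 to 2.02, those of neutrophils (4 of 4) to 1.14 to 3.84 and 2.53 to 6.26, and those of erythroid cells (2 of 4) to 135 to 274 and 19.99 to 428. The part of slide, spike-in difference and cell makeup in the values below was not tested.

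Every ribosomal protein probe was 60 bases long, and 7 of the loci are best read through the letters of their probes. All sequences are from the array files and run 5′ to 3′, with positions on the rabbit build oryCun2 where the files give them. The first is the single called probe of the set, which the files assign to the RPL35A transcript and place at chr14:93170008-93170067 on the plus strand.
RPL35A probe from base 169: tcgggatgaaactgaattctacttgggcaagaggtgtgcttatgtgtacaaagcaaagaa

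The RPS9 transcript was covered by a pair of probes that are exact reverse complements of each other, the only such pair among the 117 probes. The capitals mark the 12 bases at the start of the sense probe and the same bases, complemented, at the end of the opposite probe. The array files give no position for either.
RPS9 sense probe: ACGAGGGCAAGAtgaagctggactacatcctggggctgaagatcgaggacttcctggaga
RPS9 opposite-strand probe: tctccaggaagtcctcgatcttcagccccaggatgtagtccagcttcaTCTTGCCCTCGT

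RPL10 was covered by 10 probes that start within a few bases of each other. Between the probe from transcript base 498 (chr7:123221422-123221481, minus strand) and the probe from base 500 (chr7:123221420-123221479) the 58 shared bases differ at 1 place, G55A counted from 1 at the 5′ end of the first probe. The capital marks that base, and 5 probes of the locus hold each form.
RPL10 probe from base 498: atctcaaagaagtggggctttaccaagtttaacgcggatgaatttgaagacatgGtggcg
RPL10 probe from base 500: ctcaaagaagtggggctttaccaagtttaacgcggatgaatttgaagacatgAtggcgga

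Changes above 0 were read at the paralogue loci L22 like 1 (LOC100338464) and RPL26L1. For L22 like 1, the probe nearest the 5′ end and a probe farther along are shown, since their changes differed. The first spans chr14:65759299-65760956 on the minus strand in the files, longer than the probe itself, and the second lies at chr14:65759186-65759245. The RPL26L1 probe lies at chr3:54023705-54023764 on the plus strand.
L22 like 1 probe from base 193: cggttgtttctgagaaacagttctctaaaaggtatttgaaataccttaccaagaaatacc
L22 like 1 probe from base 306: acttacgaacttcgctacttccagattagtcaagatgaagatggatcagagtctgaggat
RPL26L1 probe from base 379: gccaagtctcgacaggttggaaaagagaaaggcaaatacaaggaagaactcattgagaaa

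At the S26-like locus (LOC100351264, minus strand of chromosome 13) a probe that was read and a probe that was not share 34 bases, shown in capitals. They lie at chr13:35356080-35356139 and chr13:35356054-35356113.
S26-like probe from base 224, well above background on all arrays: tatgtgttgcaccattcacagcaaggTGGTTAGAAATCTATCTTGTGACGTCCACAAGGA
S26-like probe from base 250, on none: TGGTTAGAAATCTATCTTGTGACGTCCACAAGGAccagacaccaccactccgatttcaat

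The probe labelled for L40, which is made as a fusion behind ubiquitin, lies at chr7:24645047-24645106 on the plus strand. It ends on a stop codon, shown in capitals, which follows the codons of the end of ubiquitin and 1 further codon. The reading frame thus stops where the L40 part of the fusion would follow, as it does in polyubiquitin genes, and the letters go against the L40 of the label. The locus is counted in the large subunit by its description only.
Probe described as ubiquitin and L40: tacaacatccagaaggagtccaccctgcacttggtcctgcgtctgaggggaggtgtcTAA

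In the large subunit, most probes read lower on the ligated arrays relative to the rest of the array, by a median of 0.51 in log2, and a single probe passed the test. Of the 81 tested probes, 69 had a change below 0, 0 were called higher and 1 was called lower, where 2.65% of all tested probes were called lower and 5.71% higher. The median change was -0.51 (70.2% of the sham signal), beside 0.01 over all tested probes. All ligated arrays lay below all sham arrays for 46 probes (56.8%, against 17.1% of all tested probes) and above them for 5 (6.17%, against 17.6%). At an unadjusted limma p below 0.05, 36 probes were lower and 2 higher, where 12.2% of all tested probes were lower and 15.2% higher. The count of calls differed between settings: 14 large subunit probes of 5 loci were called lower with trend and robust variances (4.08% of all tested probes were), and 28 of 10 loci with normexp background correction without spots of high background (4.96%), but 0 with normexp when those spots were kept.

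The direction of these changes rests on what each array is scaled to. With quantile normalization the large subunit median was -0.21 and with the deposited value table -0.20, and 66 of the 81 probes lay below 0 in each. Over all tested probes their medians were -0.035 and -0.034, with 2121 and 2116 probes called, so these settings are not separate checks. With median centring the large subunit median was -0.71, where all tested probes moved to a median of -0.19. With arrays scaled on their spike-in controls it was 0.31 and all but 1 of the 81 probes lay above 0, in a table where the median of all tested probes was 0.83. Relative to the median of all tested probes the large subunit lay 0.52 lower in log2 with spike-in scaling and 0.17 lower with quantile normalization. The first distance is the same by construction with the 75th percentile and median centring, since each of these subtracts 1 value per array.

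The called probe was that of RPL35A shown above. L35a is a protein of the large subunit whose loss of function is a cause of Diamond-Blackfan anaemia. Its signal was 8.49, 8.46 and 8.42 in sham and 7.41, 7.71 and 7.63 in ligated arrays. Every ligated array was lower than every sham array, and the groups were further apart than either spread. The change was -0.87 ± 0.18 (SE, limma adjusted p = 0.034). The probe was named after its values were seen, since it is not the one of highest signal at its locus. The call was lost on leaving out any one array (adjusted p 0.054 without ligated 3 to 0.14 without sham 2, changes -0.94 to -0.79), with sham 2 and 3 averaged (0.13) and with quantile normalization (-0.60, adjusted p = 0.095). The other 5 RPL35A probes lie at chromosome 19 in the files, not at chromosome 14, and which position is the gene and which may be a copy of it was not analysed here. Their changes ran from -0.73 to -0.51 with none called.

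**Figure D1:**
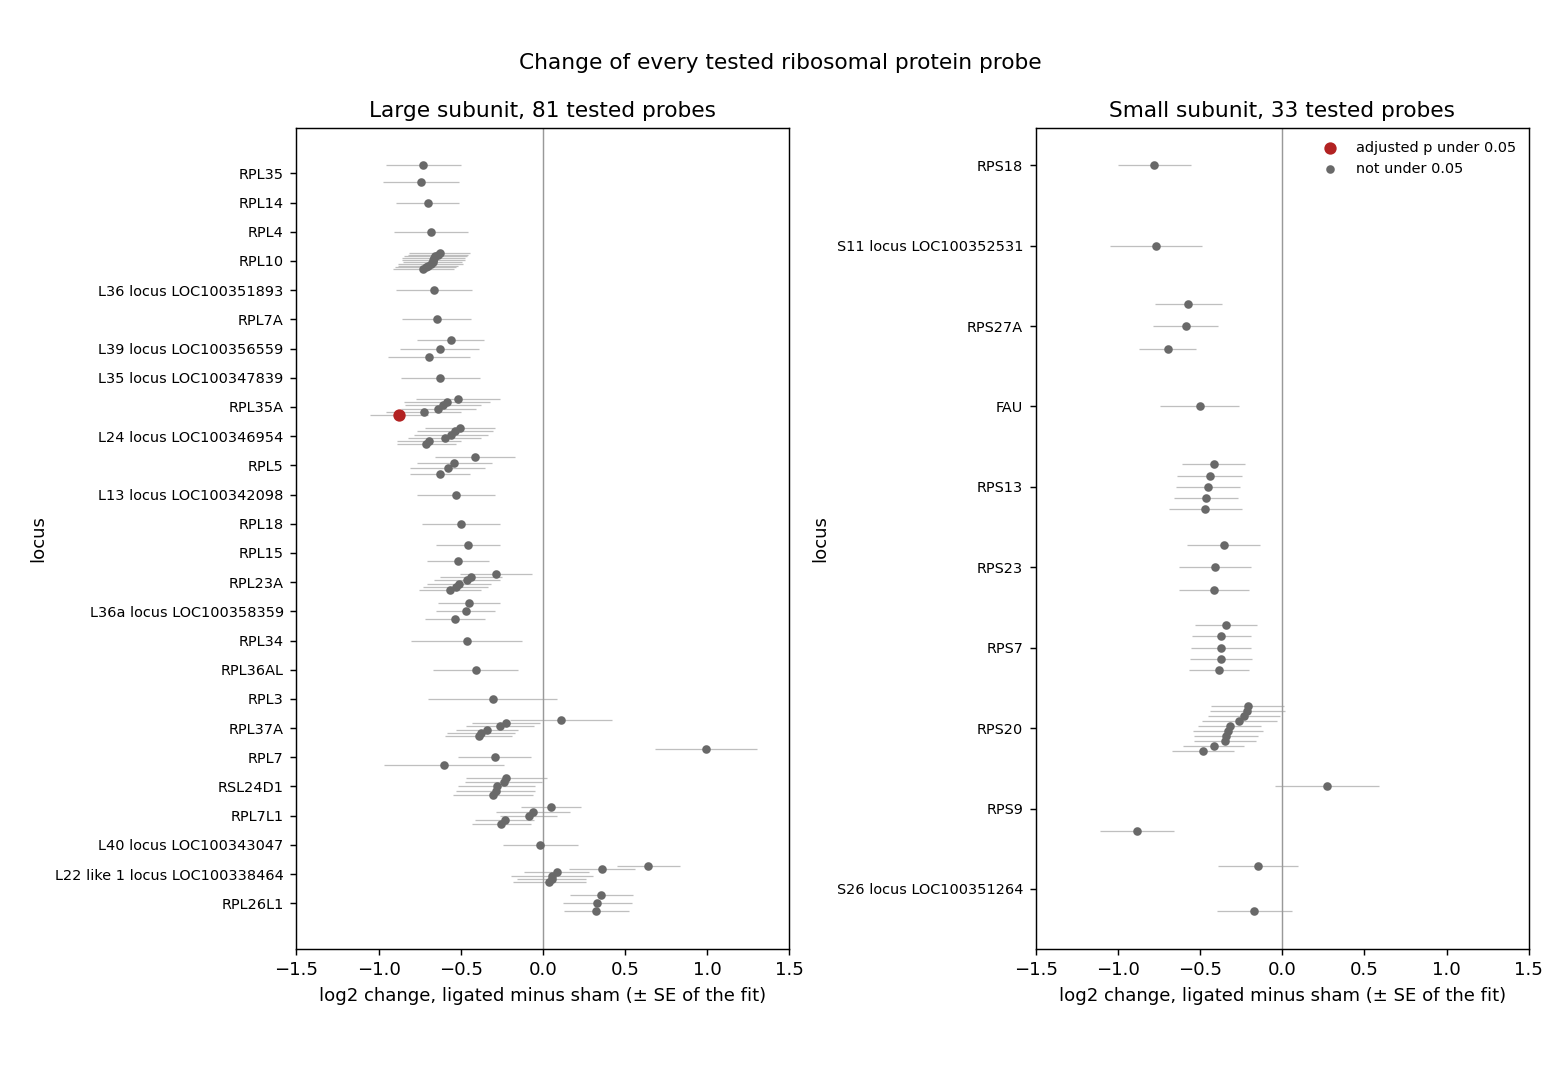
Log2 change (ligated minus sham, x axis) of each of the 81 large subunit and 33 small subunit tested probes, with bars for the SE of the fit and loci ordered by their median on the y axis. The red point is the RPL35A probe at -0.87, the only call, and most other points lie left of 0, with RPL26L1 and L22 like 1 at the bottom of the left panel.

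By the probe of highest signal at each locus, the 3 large subunit loci of smallest p did not pass. The locus LOC100346954, at chr14:118852321-118852380 on the plus strand, is described as L24, a protein at the face where the subunits meet. Its signal was 9.49, 9.36 and 9.24 in sham and 8.52, 8.77 and 8.67 in ligated arrays. The groups did not overlap, with a change of -0.71 ± 0.18 (limma adjusted p = 0.063) and all 6 probes of the locus between -0.71 and -0.50.

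RPL14, at chr9:3478013-3478072 on the minus strand, encodes a large subunit protein, and its transcript was read by 1 probe. Its signal was 6.77, 6.63 and 6.59 in sham and 5.73, 6.15 and 5.996 in ligated arrays. The groups did not overlap, and the change was -0.70 ± 0.19 (limma adjusted p = 0.074).

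RPL5, within chr13:71706136-71706739 on the minus strand, encodes the protein that carries 5S ribosomal RNA and that can hold the p53 regulator MDM2 when ribosome assembly is disturbed. Its signal was 8.55, 8.60 and 8.51 in sham and 7.73, 8.01 and 8.04 in ligated arrays. The 3 sham values lay within 0.1 of each other and above every ligated value, with a change of -0.63 ± 0.18 (limma adjusted p = 0.083) and all 4 probes from -0.63 to -0.41.

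The 10 RPL10 probes show how far probes of 1 transcript agree. L10 joins the large subunit late in its assembly and helps shape the site where amino acids are joined. The probe from base 498 read 8.66, 8.89 and 8.79 in sham and 7.93, 8.30 and 8.14 in ligated arrays. The probe from base 500 read 8.64, 8.75 and 8.60 in sham and 7.75, 8.12 and 7.98 in ligated arrays. The changes were -0.65 ± 0.19 and -0.71 ± 0.19 for the pair that differ by G55A, and over all 10 probes they ran from -0.73 to -0.63 with adjusted p of 0.062 to 0.088. Since the 10 probes share most of their letters they are 1 measurement repeated, not 10, and RPL10 was picked for its tiling after its values were seen.

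Probes of a locus mostly agreed more closely than loci did, which follows from the design where they share bases, as at RPL10. Over the 22 loci with more than 1 tested probe, the median SD between probes of a locus was 0.07 in log2, while the SD between the 36 loci was 0.26. At RPL7 and RPS9 the SD between probes was 0.85 and 0.82. All tested probes lay below 0 at 30 loci and the sign differed between probes at 4, which were RPL7, RPL7L1, RPL37A and RPS9. With 1 probe per locus, that of highest signal, 24 of 26 large subunit loci lay below 0 with a median of -0.51, and 0 were called by limma. At an unadjusted limma p below 0.05, 12 were lower and 0 higher, where 12.2% of all tested probes were lower and 15.2% higher.

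**Figure D2:**
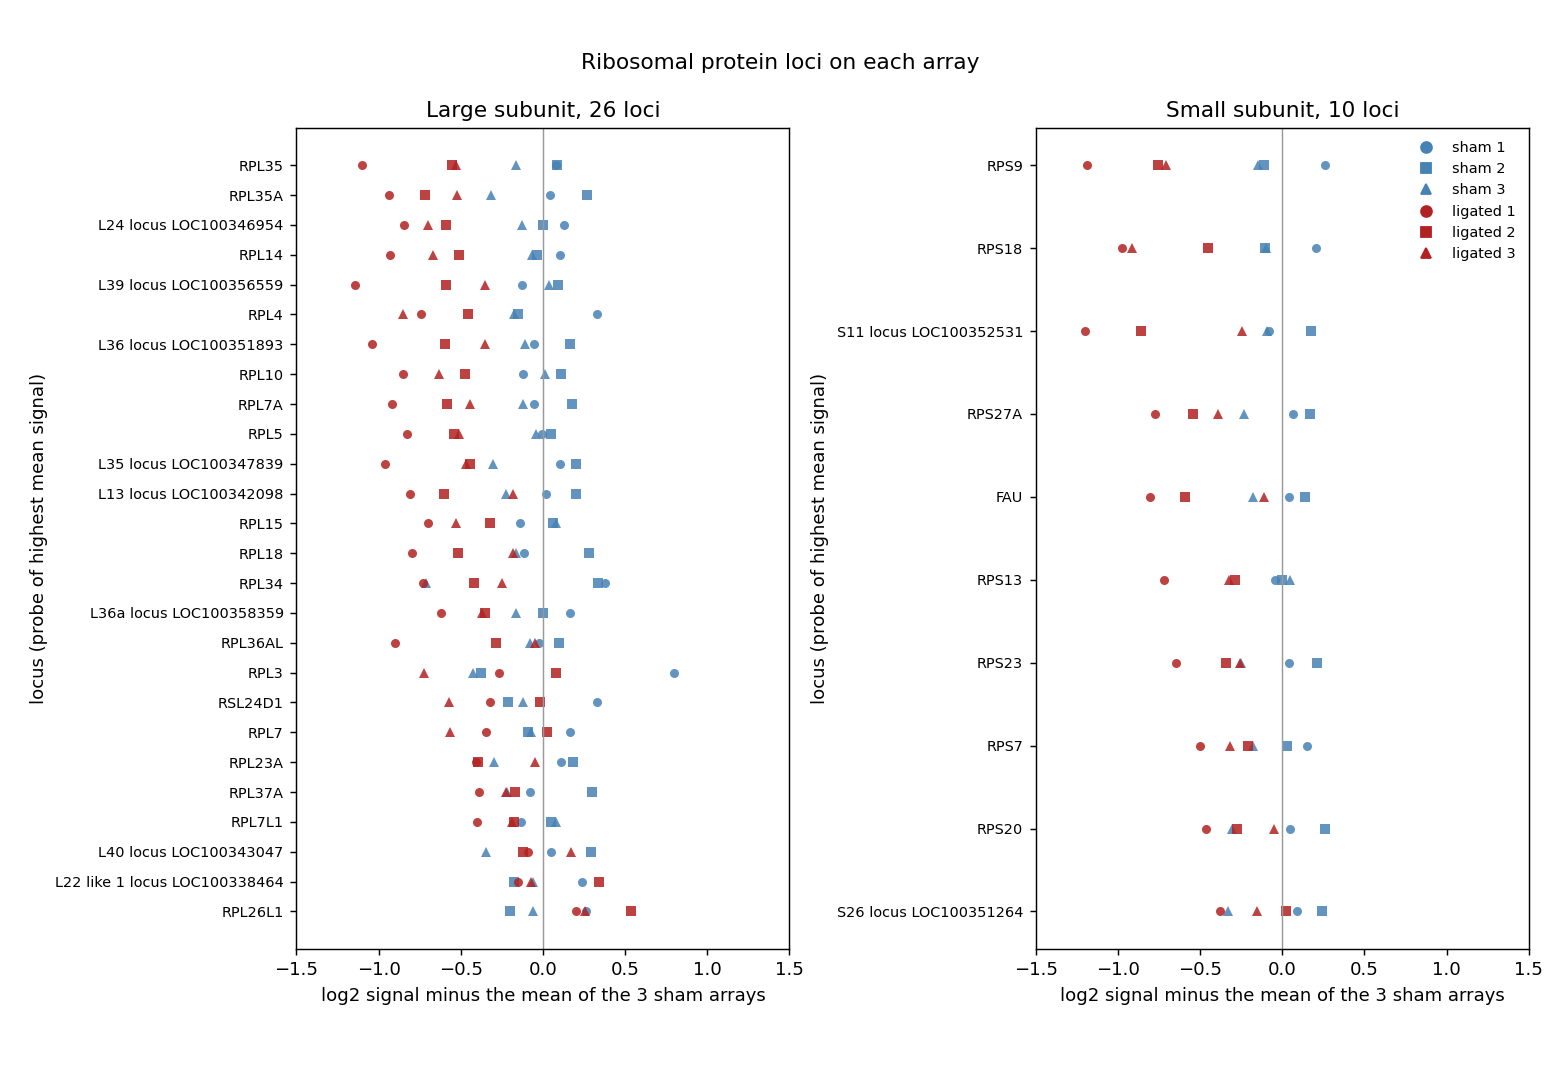
Log2 signal of each locus on each array (x axis, minus the mean of the 3 sham arrays), for the probe of highest signal of 26 large subunit and 10 small subunit loci (y axis, ordered by change). Blue points are sham and red points ligated arrays, with circles, squares and triangles for replicates 1, 2 and 3; red circles (ligated 1) lie farthest left for most loci.

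Paralogues of core ribosomal proteins were fixed for naming, and those with a probe follow. RPL26L1, a close copy of RPL26 that is translated in its own right, read 1.56, 1.26 and 1.42 in sham and 1.65, 1.96 and 1.70 in ligated arrays with the probe shown. All ligated arrays lay above all sham arrays for that probe. The change was 0.36 ± 0.19 (limma adjusted p = 0.28), and the other 2 probes gave 0.33 and 0.32, so that no call was made. With quantile normalization the probe of highest signal gave 0.42 (adjusted p = 0.24).

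The L22 like 1 locus, matched to RPL22L1 by its description and not by symbol, reads a paralogue of RPL22, a protein known to bind RNA and to hold back the transcript of its own paralogue. Its probe from base 193 read 2.51, 2.46 and 2.25 in sham and 2.88, 3.25 and 3.01 in ligated arrays. Every ligated array was above every sham array, and the change was 0.64 ± 0.19 (limma adjusted p = 0.090). The next probe, from base 236, gave 0.36 ± 0.20, and the 4 probes from base 256 on gave 0.04 to 0.08. With quantile normalization the first probe was called higher (0.78, adjusted p = 0.048), as it was with the deposited value table (0.77, adjusted p = 0.048), the only calls of a member in that direction under any setting tried. The probe from base 306, of highest signal at the locus, had a change of 0.04 ± 0.22, with signals of 6.06, 5.65 and 5.77 in sham and 5.68, 6.17 and 5.76 in ligated arrays. Its groups overlapped.

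RPL7L1, a paralogue of RPL7 known for a part in early assembly of the large subunit, was read by 5 probes with changes of -0.25 to 0.05 and none called. RSL24D1, an assembly factor that the array files describe as L24-like, was read by 5 probes with changes of -0.30 to -0.22 and none called. Without these 4 loci of paralogues and assembly factors, 60 of 62 large subunit probes lay below 0, with a median of -0.56. That grouping was made after the values were seen, and it left RPL36AL, also a paralogue by its name, among the 62 probes. The 1 probe of RPL36AL had a change of -0.41 ± 0.26 (limma adjusted p = 0.35).

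RPL3, RPL7 and RPL39 were also fixed for naming. RPL39 was matched to the L39 locus LOC100356559 by its description and not by symbol. Its probe of highest signal read 8.38, 8.61 and 8.55 in sham and 7.37, 7.93 and 8.16 in ligated arrays. The groups did not overlap, and the change was -0.70 ± 0.25 (limma adjusted p = 0.14). The 3 probes of the locus ran from -0.70 to -0.56 with none called. With quantile normalization the first gave -0.44 (adjusted p = 0.23). RPL3 encodes the protein next to the peptidyl transferase centre, and its 1 probe, at chrX:63775259-63775318, read 5.69, 4.52 and 4.47 in sham and 4.62, 4.97 and 4.17 in ligated arrays. Sham 1 stood above the other 5 arrays, the groups overlapped, and the change was -0.31 ± 0.39 (limma adjusted p = 0.64), or 0.09 without sham 1. RPL7 had a probe from base 531 with a change of -0.29 ± 0.22 (limma adjusted p = 0.42), which was 0.08 with quantile normalization. Its 2 other probes lie near the 3′ end of the listed transcript, from bases 1091 and 1212, and gave -0.60 ± 0.37 and 0.99 ± 0.31 (adjusted p = 0.33 and 0.10). The last read -2.56, -2.55 and -2.77 in sham and -0.997, -2.12 and -1.78 in ligated arrays, so that its groups did not overlap while those of the probe from base 531 did.

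The probe described as ubiquitin and L40, the only one at that locus, read 11.18, 11.42 and 10.78 in sham and 11.04, 11.01 and 11.30 in ligated arrays. The groups overlapped, and the change was -0.01 ± 0.23 (limma adjusted p = 0.97).

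In the small subunit, the same direction was seen and no probe passed. Of the 33 tested probes 32 had a change below 0. By limma 0 were called higher and 0 lower, against 5.71% and 2.65% of all tested probes. At an unadjusted limma p below 0.05, 7 were lower and 0 higher, where 12.2% of all tested probes were lower and 15.2% higher. With trend and robust variances 3 were called lower (4.08% of all tested probes were), and with normexp without spots of high background 7, of 5 loci (4.96%). The median change was -0.39 (76.5% of the sham signal). All ligated arrays lay below all sham arrays for 22 probes (66.7%, against 17.1% of all tested probes) and above them for 0 (against 17.6%). With 1 probe per locus, all 10 loci lay below 0, with a median of -0.47 and 0 called. With quantile normalization the median over probes was -0.17 with 28 of 33 below 0, with the deposited value table -0.16, with median centring -0.59, and with spike-in scaling 0.44, again 0.39 lower than the median of all tested probes there.

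RPS9, whose protein lies in the body of the small subunit and takes part in reading the codon accurately, had the lowest change of the set. Its sense probe read 8.68, 8.31 and 8.27 in sham and 7.23, 7.66 and 7.71 in ligated arrays. All ligated arrays were lower, with a change of -0.88 ± 0.23 (limma adjusted p = 0.063). The opposite-strand probe read 1.38, 2.19 and 2.12 in sham and 2.57, 1.74 and 2.20 in ligated arrays. Its groups overlapped and its change was 0.27 ± 0.32 (limma adjusted p = 0.61). When only probes well above background on all 6 arrays were tested, the sense probe was called (adjusted p = 0.047).

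RPS18, at chr12:23679492-23679551 on the plus strand, is often taken as a reference gene in expression studies. It read 7.44, 7.13 and 7.14 in sham and 6.26, 6.78 and 6.32 in ligated arrays. The groups did not overlap, with a change of -0.78 ± 0.22 (limma adjusted p = 0.080), and with quantile normalization it was -0.33 (adjusted p = 0.39).

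RPS27A, at chr7:2560852-2560911 on the minus strand, is the other ribosomal protein made as a ubiquitin fusion. Its probe of highest signal read 8.96, 9.06 and 8.66 in sham and 8.12, 8.35 and 8.50 in ligated arrays. The groups did not overlap, the change was -0.57 ± 0.21 (limma adjusted p = 0.14), and the 2 other probes gave -0.59 and -0.70 (adjusted p = 0.12 and 0.060).

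FAU, which encodes S30 behind a ubiquitin-like protein, read 5.93, 6.02 and 5.71 in sham and 5.08, 5.29 and 5.77 in ligated arrays. Ligated 3 overlapped the sham arrays, and the change was -0.50 ± 0.24 (limma adjusted p = 0.23). The S11 locus LOC100352531 showed the same array apart, at 7.86, 8.12 and 7.85 in sham and 6.74, 7.08 and 7.69 in ligated arrays. Its change was -0.77 ± 0.28 (limma adjusted p = 0.14), and it was the 1 small subunit probe called when ligated 3 was left out, for which it is named here after its values were seen.

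The remaining small subunit loci had changes nearer to 0. The 5 probes of RPS13 gave -0.47 to -0.42, the 5 of RPS7 -0.39 to -0.34, the 3 of RPS23 -0.42 to -0.36 and the 10 of RPS20 -0.48 to -0.21. All ligated arrays lay below all sham arrays for each RPS13 and RPS7 probe, but for 5 of the 10 RPS20 probes and 1 of the 3 RPS23 probes. The same held for 17.1% of all tested probes. Among probes of other genes it held for 44.5% at signals of 6 to 8 and 25.1% at 8 to 10. At the S26-like locus the probe from base 223 read 5.03, 5.18 and 4.61 in sham and 4.56, 4.96 and 4.79 in ligated arrays, with a change of -0.17 ± 0.23 (0.065 with quantile normalization), and the probe from base 224 gave -0.15. The 3 probes from bases 250, 252 and 253 were not well above background on any array, although the first of them shares 34 bases with the probe from base 224.

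The arrays did not contribute alike. Against the sham mean, the median large subunit probe was -0.69 on ligated 1, -0.37 on ligated 2 and -0.44 on ligated 3, and the median small subunit probe was -0.56, -0.30 and -0.26. Ligated 1 was the lowest ligated array for 99 of 114 probes, and sham 3 the lowest sham array for 72. The spike-in controls were also lowest on ligated 1, at a median of -0.96 from their own means, against -0.45 on ligated 2, 0.21 on ligated 3 and 0.19 to 0.65 on sham arrays. Without ligated 1 the median change was -0.41 in the large and -0.30 in the small subunit.

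Signal level moved with the change. Over the 114 probes the change and the mean signal had a Pearson r of -0.54 and a Spearman rho of -0.29, as a description over probes that share arrays, and many of which share a transcript. Over the 36 loci, 1 probe each, these were -0.34 and -0.16. Probes of other genes at signals of 6 to 10 moved in the same direction on this scale, but less. Between 4 and 6 the order was the other way. There the 12 ribosomal protein probes had a median of -0.16 with 58.3% below 0. The 1068 other probes had a median of -0.24 with 69.4% below 0. Between 2 and 4 the medians were -0.24 for 7 ribosomal protein probes and -0.16 for 2752 others. Between -2 and 2 they were -0.06 for 9 and -0.02 for 14504. Between signals of 6 and 8, the 32 ribosomal protein probes had a median change of -0.52 with all of them below 0, and the 393 other probes a median of -0.40 with 78.1% below 0. Between 8 and 10, the 52 ribosomal protein probes had a median of -0.52 with 51 below 0, and the 223 other probes a median of -0.16 with 65.9% below 0. Over both bands together the medians were -0.52 for 84 ribosomal protein probes and -0.33 for 616 others, and with quantile normalization they were -0.25 and 0.00. With spike-in scaling both were above 0, at 0.30 and 0.49. Of the 13 probes with a change above 0, 12 had a mean signal below 6. The GC content of a probe had a Pearson r of -0.11 with its change.

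**Figure D3:**
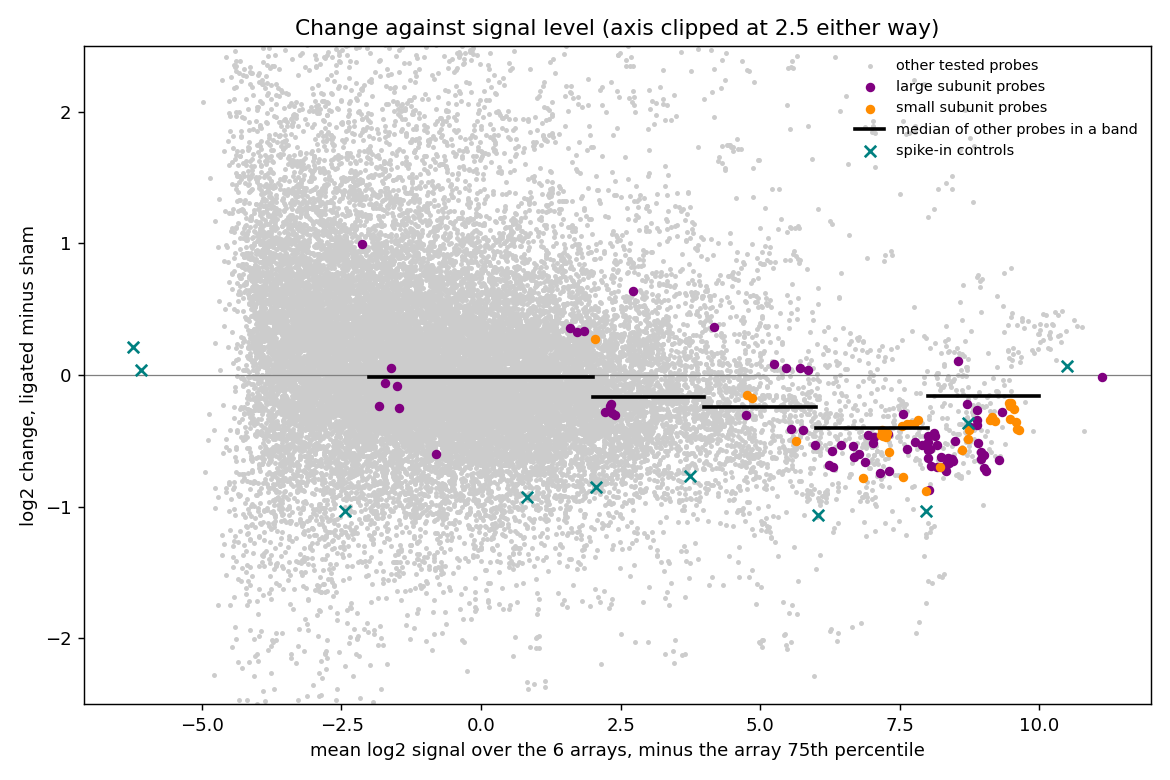
Log2 change (ligated minus sham, y axis) against mean log2 signal over the 6 arrays (x axis) for large subunit probes (purple), small subunit probes (orange), other tested probes (grey) and the 10 spike-in controls (green crosses). Black lines are medians of the other probes in bands of signal, which reach -0.40 between 6 and 8 and -0.16 between 8 and 10, while the ribosomal protein probes centre on -0.52 in both bands.

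**Figure D4:**
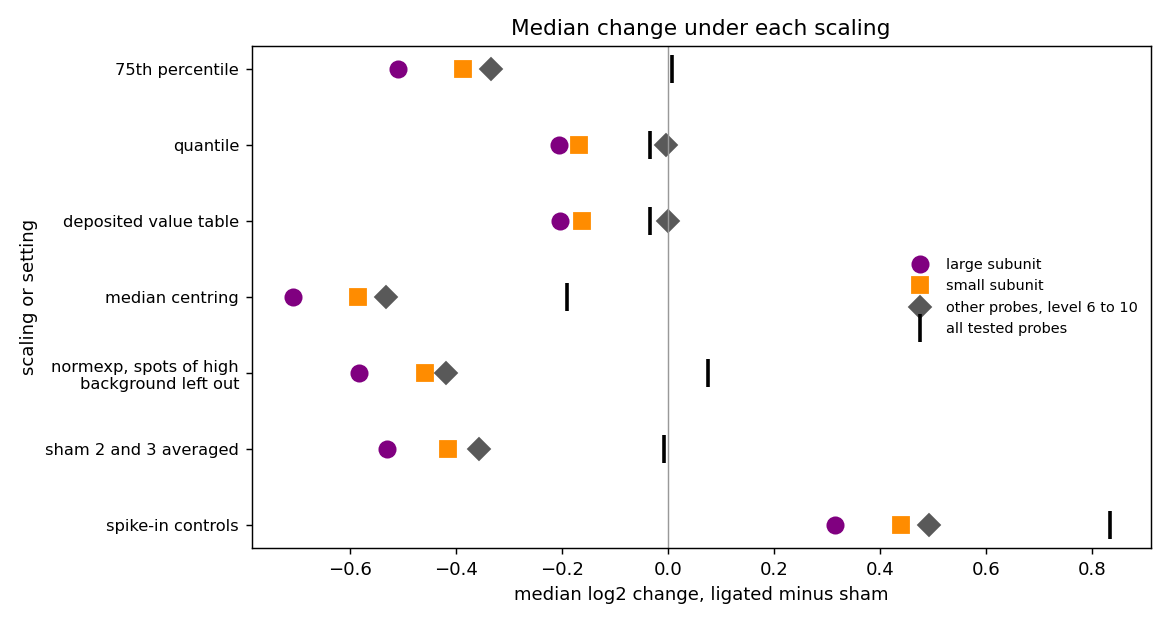
Median log2 change (x axis) of the large subunit, the small subunit, other probes of signal 6 to 10 and all tested probes under each scaling or setting (y axis). The subunit medians are over all their tested probes, not only those of signal 6 to 10. Both lie left of the other probes in every line, from -0.71 with median centring to 0.44 with spike-in scaling, where all medians are above 0.

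The other genes of the pathway were read from lists, with 1 probe per gene. Of the ribosome assembly factors, which build the subunits in the nucleolus, 60 of 88 were tested, with 0 called in either direction by limma and a median change of -0.12. At an unadjusted p below 0.05, 7 of them were lower (11.7%, beside 12.2% of all tested probes) and 1 higher (beside 15.2%). DDX21, a nucleolar RNA helicase, read -1.51, -1.40 and -1.31 in sham and -0.34, -0.37 and -0.83 in ligated arrays. All ligated arrays were higher, with a change of 0.89 ± 0.21 (limma adjusted p = 0.050) just outside the threshold. SBDS, which helps release an assembly factor that keeps the subunits apart, read 1.75, 1.70 and 1.88 in sham and 1.04, 1.22 and 1.13 in ligated arrays. It was lower on every ligated array, with a change of -0.65 ± 0.17 (limma adjusted p = 0.069).

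Of the regulators of ribosomal protein and ribosomal RNA synthesis, 19 of 35 were tested, with 0 called and a median of -0.16. At an unadjusted limma p below 0.05, 4 were lower (21.1%, beside 12.2% of all tested probes) and 0 higher (beside 15.2%). RRN3, which brings RNA polymerase I to the ribosomal RNA genes, read -0.52, -0.59 and -0.60 in sham and -1.59, -1.55 and -1.01 in ligated arrays. The probe of highest signal had a change of -0.81 ± 0.22 (limma adjusted p = 0.071), while 4 of its 7 probes were called. CNBP, a protein that binds terminal oligopyrimidine messages, had a change of -0.69 ± 0.20 (limma adjusted p = 0.084). MYC read 1.11, 0.10 and 0.16 in sham and 1.17, 1.30 and 0.83 in ligated arrays. Sham 1 lay among the ligated arrays, and the change was 0.64 ± 0.32 (limma adjusted p = 0.25).

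Of the translation factors, 39 of 50 were tested, with 0 called and a median of -0.28. At an unadjusted limma p below 0.05, 11 were lower (28.2%, beside 12.2% of all tested probes) and 1 higher (beside 15.2%). EEF1A2, the muscle and nerve form of the elongation factor that delivers transfer RNA, read -1.37, -2.40 and -2.47 in sham and -4.27, -3.39 and -3.50 in ligated arrays. All ligated arrays were lower, with a change of -1.64 ± 0.39 (limma adjusted p = 0.050) just outside the threshold. The signal was well above background on 2 of the 3 ligated arrays, and the change was -0.30 with normexp without spots of high background and 0.23 with normexp. EIF3K, a subunit of the initiation factor that holds the small subunit, read 7.04, 7.44 and 7.48 in sham and 6.13, 6.52 and 6.75 in ligated arrays, a change of -0.85 ± 0.24 (limma adjusted p = 0.079).

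Of the mitochondrial ribosomal proteins, which form a separate ribosome inside mitochondria, 39 of 40 were tested, 3 were called lower and 0 higher, where 2.65% of all tested probes were called lower and 5.71% higher, with a median of -0.22. MRPL24 read 4.06, 4.24 and 4.13 in sham and 3.21, 3.12 and 3.28 in ligated arrays, a change of -0.94 ± 0.17 (limma adjusted p = 0.025). MRPL52 read 5.15, 5.38 and 5.45 in sham and 3.94, 4.31 and 4.58 in ligated arrays, a change of -1.05 ± 0.23 (limma adjusted p = 0.041), and all 5 of its probes were called. MRPS15 read 1.33, 1.60 and 1.53 in sham and 0.79, 0.10 and 0.53 in ligated arrays, a change of -1.01 ± 0.23 (limma adjusted p = 0.048), with 1 of 5 probes called. Each of the 3 fell without overlap between groups, and none was called with sham 2 and 3 averaged (adjusted p 0.11 to 0.17), with spike-in scaling (changes of -0.23 to -0.12), without a filter on dim probes, with normexp or with the replicate block. With quantile normalization MRPL24 was called (adjusted p = 0.046) and MRPL52 (0.051) and MRPS15 (0.058) were not, and the deposited value table gave the same calls. The call of MRPL24 was lost without ligated 1, ligated 2, sham 2 or sham 3 (adjusted p 0.059 to 0.12), that of MRPL52 without any array but ligated 3 (0.053 to 0.16), and that of MRPS15 without any 1 array (0.057 to 0.17).

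**Figure D5:**
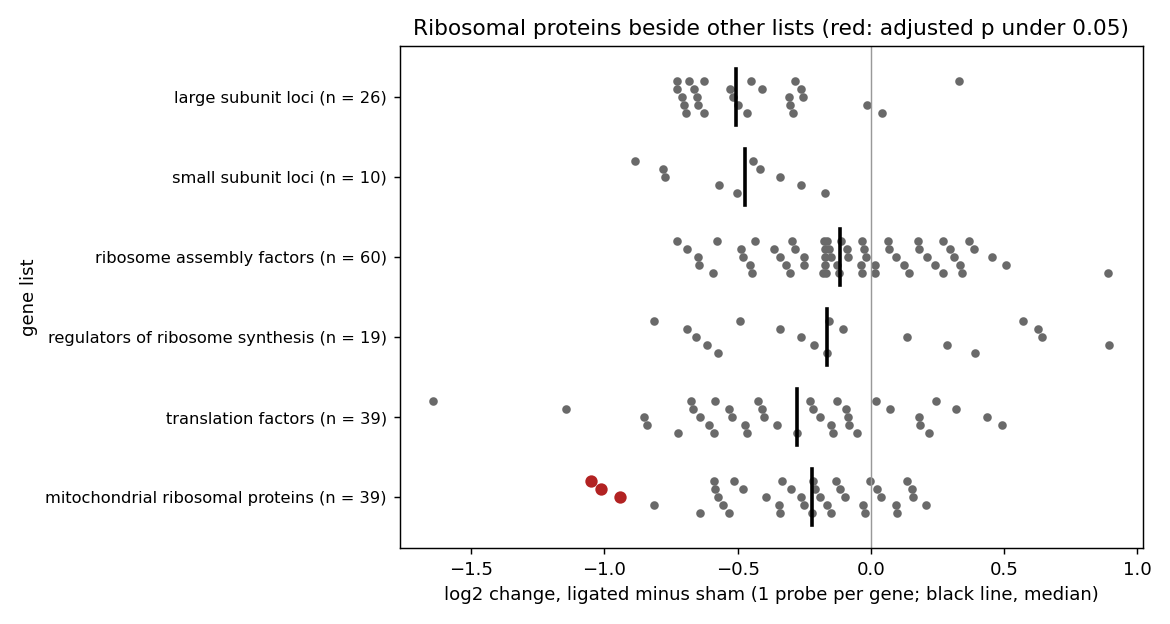
Log2 change (ligated minus sham, x axis) of single genes, 1 probe each, for the ribosomal protein loci and 4 other lists (y axis), with black lines at the medians. The medians are -0.51 and -0.47 for the large and small subunit loci and -0.12 to -0.28 for the other lists, and the red points are the 3 mitochondrial ribosomal proteins called lower.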

How the data were processed

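Messenger RNA of 6 preparations (3 sham, 3 ligated) was read on one-colour Agilent arrays, scanned and extracted with Agilent Feature Extraction 10.7 per the submitters' processing notes. Per the file headers, the processed signal is an intensity after background subtraction within the array; the raw spot signal and local background are deposited as intensity too. Marks for spots above background and for outliers are of another kind, 0 or 1 flags per the file headers. A value table deposited beside them is in log2 with array medians of 5.05. Its scaling is not given in the labels, but its changes were close to those with quantile normalization.

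Outlier spots were left out, spots of a probe averaged as log2, and the 75th percentile subtracted. The comparison used limma 3.58.1 (R 4.3.3; lmFit and eBayes, 4 residual degrees of freedom, two-sided, Benjamini-Hochberg over 27410 probes), tested on simulated data. Replicates are taken as separate rabbits per the labels, and precision is limited by their number. Of 43603 probes 23536 had 1 symbol through a RefSeq table of assembly mOryCun1.1, 49 several and 20018 none. Members and lists were chosen with earlier results of these data known. Genes were named by rule: the 3 loci of smallest p per subunit (fewer than 3 passed), fixed paralogues and reference genes, and up to 4 called genes per other list (up to 2 as values where none was called), with MYC. Alternatives were normexp (offset 50) with and without spots of high background (above 10 times the array median), quantile, median centring, the deposited table, other filters on dim probes, trend and robust variances, a replicate block, sham 2 and 3 averaged, each array left out and, added after seeing the data, spike-in scaling and other choices of probes. Replicate numbers were not used to pair the arrays.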

Additional observations from a re-analysis of the deposited data

How the results depend on the processing

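Of the numbers of called ribosomal protein probes, the large subunit count of 1 lower became 0 without a filter on dim probes, with normexp, quantile normalization, the deposited value table, spike-in scaling, sham 2 and 3 averaged, and on leaving out any 1 array (0 to 0). It became 14 with trend and robust variances (in 5 loci) and 28 with normexp without spots of high background (in 10 loci); the cause was not tested. The large subunit count of 0 higher became 1 with quantile normalization and with the deposited table. The small subunit count of 0 lower became 1 with the filter on all 6 arrays, 3 with trend and robust variances, 7 with normexp without spots of high background, and 0 to 1 on leaving out 1 array, the 1 without ligated 3. The share of all tested probes called lower was 4.08% and 4.96% under the 2 settings with most calls.

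The medians were -0.20 and -0.16 (large, small) with the deposited table, -0.21 and -0.17 with quantile normalization and -0.71 and -0.59 with median centring. They reversed to 0.31 and 0.44 with spike-in scaling, which moved the median of all tested probes to 0.83. Without a filter that median was 0.17 and with normexp 0.21. On leaving out 1 array they ran from -0.57 to -0.41 and from -0.44 to -0.30.

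The number of probes called over the array, 2290, was 1524 without a filter, 0 with normexp, 595 with sham 2 and 3 averaged, and 552 to 2269 on leaving out 1 array (552 without sham 3, 595 without sham 2, 752 without ligated 2 and 1205 without ligated 1). With the replicate block 1295 were called, and 0 large subunit probes. Deviations of same-numbered arrays correlated at 0.43, -0.57 and 0.58, which with 3 arrays per group cannot show whether the numbers pair the arrays. The labels name no pairs, and the block is not part of the result.

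The L39 locus and RPL36AL were not followed in this way. At the probe of highest signal of each other named gene, the sign changed with spike-in scaling for LOC100346954 (0.12), RPL14 (0.12), RPL10 (0.17), RPS27A (0.25), RPS18 (0.045), RPL5 (0.20), RPL3 (0.52), RPL7 (0.53), RPL7L1 (0.57), FAU (0.32), RPL35A (0.099), RPS13 (0.38), RPS7 (0.48), RPS20 (0.56), RPS23 (0.41), the S26-like LOC100351264 (0.65), the S11 locus LOC100352531 (0.054), RSL24D1 (0.52), RPL37A (0.56), LOC100343047 described as ubiquitin and L40 (0.81), SBDS (0.18), RRN3 (0.012) and CNBP (0.14). It also changed for RPL7 with the deposited table (0.086) and quantile normalization (0.081), for LOC100351264 (0.067 and 0.065) and RPL37A (0.016 in both) under the same settings, for RPL7L1 (0.17) and EEF1A2 (0.23) with normexp, and for RPL3 without sham 1 (0.093, range -0.52 to 0.093 on leaving out 1 array). For LOC100338464 it changed with median centring (-0.16), both forms of normexp (-0.022 without spots of high background, -0.045 with them) and sham 2 and 3 averaged (-0.019), and ran from -0.11 to 0.16 on leaving out 1 array. LOC100343047, at -0.01 with all arrays, ran from -0.19 to 0.13.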
